A study of Mus musculus with 10 samples.

Results

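The unfolded protein response and the integrated stress response were examined as a module of 34 genes, grouped by their roles in these pathways. All 34 were listed in the deposited tables of 29564 genes, and 33 had a TPM (a transcript abundance that corrects for length and sums to a fixed total in each mouse) above 0 in at least 9 of the 10 mice. The 33 comprised 8 sensors and transcription factors, 14 chaperones and folding enzymes of the endoplasmic reticulum (ER), 7 genes of ER-associated degradation and translocation, and 4 targets of the transcription factor Atf4. The remaining member, Derl3, which encodes a channel-like protein of ER-associated degradation, was listed at 0 counts in every mouse. At the depths reached here, 3 counts stood for between 0.142 and 0.237 CPM (counts brought to the same library size, over the genes tested), so a lower level of Derl3 was not detectable.

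Secretory and membrane proteins fold in the ER with the help of chaperones, and proteins that fail to fold are sent back to the cytosol and degraded. Unfolded proteins activate the sensors Ire1 (gene Ern1), Perk (Eif2ak3) and Atf6. Ire1 splices the mRNA of Xbp1 into a form that encodes an active transcription factor, Atf6 is cut by Golgi proteases to release a factor, and Perk phosphorylates the initiation factor eIF2, which lowers translation in general while favoring that of Atf4. In cardiomyocytes the same ER is continuous with the sarcoplasmic reticulum that stores calcium, and its lumenal chaperones are also calcium-binding proteins.

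Left ventricles of 5 mice in the control group (TT-583 to TT-587) and 5 in the HFD+mTAC group (TT-588 to TT-592), all wild-type C57BL6 mice labelled as treated with vehicle, had been profiled by sequencing of polyadenylated RNA to describe the transcriptome of a mouse model of HFpEF, heart failure in which the ejection fraction is preserved. Per the study's methods the mice were C57BL/6J males. Mice of the HFD+mTAC group had surgery for moderate transverse aortic constriction (mTAC), which tightens the aortic arch so that the left ventricle ejects against a raised pressure, at 11 weeks of age and were fed a high-fat diet (HFD; 60% of energy as fat) from then on. Control mice, also 11 weeks old at the start, were not constricted and ate a chow diet with 10% of energy as fat. For randomized efficacy tests in HFD+mTAC mice, the methods give a daily oral vehicle dose of 10 mL/kg for 6 to 9 weeks. The paper also describes hearts sequenced after a single dose. Whether the HFD+mTAC mice sequenced here followed either schedule is not stated in the sources used here. The schedule of the control mice is not given there. With only these groups, the effects of the diet and of the constriction cannot be told apart.

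Libraries held 34.2 to 53.7 M estimated counts, of which mitochondrially encoded genes took 43.8 to 52.7%, and 12.65 to 21.07 M counts fell on the 13301 protein-coding nuclear genes that were tested. The lowest mitochondrial shares, 43.8 and 44.0%, belonged to control mice TT-583 and TT-584, against 46.4 to 52.7% in the other 8 mice. Markers fitted the labelled tissue, with a summed TPM of 16840 to 24390 for 9 cardiomyocyte genes in every mouse, whereas 6 adipocyte genes summed to 0.7 at most and Ucp1 was at 0 throughout. The cardiomyocyte sum rested mostly on Myl2, Tnnt2, Actc1 and Tnni3, with median TPM from 7852 down to 2913. Myh6 had a median TPM of only 30.1, and the cause of this was not tested. The labels give a separate number for each mouse, and no batch. Counts were normalized with the TMM method of edgeR and are given as CPM, which compare mice for a given gene, and TPM is used to compare genes with each other.

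Several members carry known stress-response elements in their promoters, and the sequences that match them are shown as a description. Because the members are genes of this response, their share of matches is not independent of how they were chosen. The promoter table of RefSeq (GRCm38.p6), which spans 250 bases before to 50 bases after each transcription start, held 30 of the 34 members; Atf6, Hyou1, Manf and Derl1 were not matched. It was searched on both strands for the ER stress element ERSE (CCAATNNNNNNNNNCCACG, bound by NF-Y at its first part and by Atf6 or Xbp1 at its last), for ERSE-II (ATTGG and CCACG with 1 base of any kind between them), for the unfolded protein response element UPRE (TGACGTGG) and for CARE (TGATGCAA), a composite element bound by Atf4 with C/EBP partners. No other forms were searched. ERSE, ERSE-II and the UPRE share the letters CCACG or their complement, so that matches to them may overlap. The ERSE matches of the chaperones are written 5′ to 3′ on the strand that carries the motif, with 8 flanking bases on each side and the fixed letters in capitals:
Hspa5, chr2:34772017-34772051: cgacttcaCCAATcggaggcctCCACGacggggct
Hsp90b1, chr10:86705630-86705664: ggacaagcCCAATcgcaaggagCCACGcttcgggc
Hsp90b1, chr10:86705525-86705559: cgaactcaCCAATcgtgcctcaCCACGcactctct
Calr, chr8:84847067-84847101: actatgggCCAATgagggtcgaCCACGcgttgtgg
Pdia6, chr12:17266483-17266517: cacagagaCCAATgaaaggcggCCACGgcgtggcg
Creld2, chr15:88819512-88819546: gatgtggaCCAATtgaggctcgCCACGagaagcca
Dnajc3, chr14:118937819-118937853: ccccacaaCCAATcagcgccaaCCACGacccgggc
Canx, chr11:50325792-50325826: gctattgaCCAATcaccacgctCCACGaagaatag

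The 9 bases between the fixed parts differed between genes, while the fixed parts are the same in all 8 lines because they were the search pattern. ERSE was also matched in the promoters of Syvn1 and Derl3, so that 9 of the 30 members held it, against 37 of 27025 genes (0.137%) and 39 of 32851 promoters (0.119%) in the whole table. ERSE-II was matched in Dnajb11 and Herpud1, against 0.0365% of all promoters, and CARE in Herpud1 and Chac1, against 0.895%. The UPRE was matched in none of the 30 members and in 0.676% of all promoters. Herpud1, a membrane protein that organizes the degradation complex, was the only member with matches to both an ER stress element and CARE, and Chac1, a glutathione-degrading enzyme, is shown beside it:
Herpud1, ERSE-II, chr8:94386369-94386395: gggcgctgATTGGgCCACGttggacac
Herpud1, CARE, chr8:94386309-94386332: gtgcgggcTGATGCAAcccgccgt
Chac1, CARE, chr2:119351041-119351064: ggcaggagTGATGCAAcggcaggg

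A match describes letters only; no binding was measured in these hearts.

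Levels spanned more than 2 orders of magnitude between members. By median TPM over the 10 mice, the calcium-binding chaperone Calr (calreticulin) stood highest at 72.1, followed by Herpud1 at 54.4, Hsp90b1 (endoplasmin, an Hsp90 of the ER) at 43.6, Hspa5 (BiP, the main ER Hsp70) at 33.8 and the membrane chaperone Canx (calnexin) at 23.1. Per-mouse TPM of the first 4 overlapped widely, with 47.4 to 112.0 for Calr, 22.1 to 76.6 for Herpud1, 30.1 to 99.1 for Hsp90b1 and 19.7 to 61.9 for Hspa5, so their order is not resolved beyond the spread of the mice. Lowest were Trib3 at 0.191, Ern1 at 0.159 and Chac1 at 0.151, whose ranges also overlapped. The effective lengths by which these 3 were divided had medians above their longest annotated transcript (13373 against 6946 bases for Ern1), so that their TPM and rank depend on those lengths. Counts behind these values ranged from 7031 to 15169 per mouse for Calr and from 30 to 98 for Chac1. Of the Atf4 targets, Trib3, Asns and Chac1 rest on few reads, whereas Ppp1r15a had 963 to 3440 counts per mouse. Chaperones differed as well, and Sdf2l1 had 38 to 274.

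None of the 33 members passed an adjusted p of 0.05 in the quasi-likelihood test of edgeR, with p-values adjusted by Benjamini-Hochberg across the genes tested (smallest adjusted p = 0.245, Hspa5), in a comparison in which 0.0601% of all genes were called. At an unadjusted p under 0.05, 8 members were lower in HFD+mTAC mice and 0 were higher, whereas 8.26% of all genes reached that level, 3.72% lower and 4.54% higher. These 8 were Hspa5, Calr, Manf, Sdf2l1, Hsp90b1 and Pdia3 among the chaperones, the factor Xbp1 and the Atf4 target Ppp1r15a. DESeq2, run on the same counts, called 3 members at an adjusted p under 0.05, all lower, and called 0.436% of all genes as lower. They were Hspa5 (adjusted p = 0.0183), Calr (adjusted p = 0.0310) and Manf (adjusted p = 0.0372). limma on log2(TPM + 1) called none and had 2 members at an unadjusted p under 0.05, Xbp1 lower and Asns higher, a level that 6.71% of all genes reached. Of the 33 members, 22 had a log2 fold change below 0 (all genes, 49.7%) and 11 above 0 (all genes, 50.3%), with a median of -0.12 for the members and 0.00 for all genes tested. In bulk tissue, fewer cells of a type and less RNA per cell cannot be told apart.

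**Figure D1:**
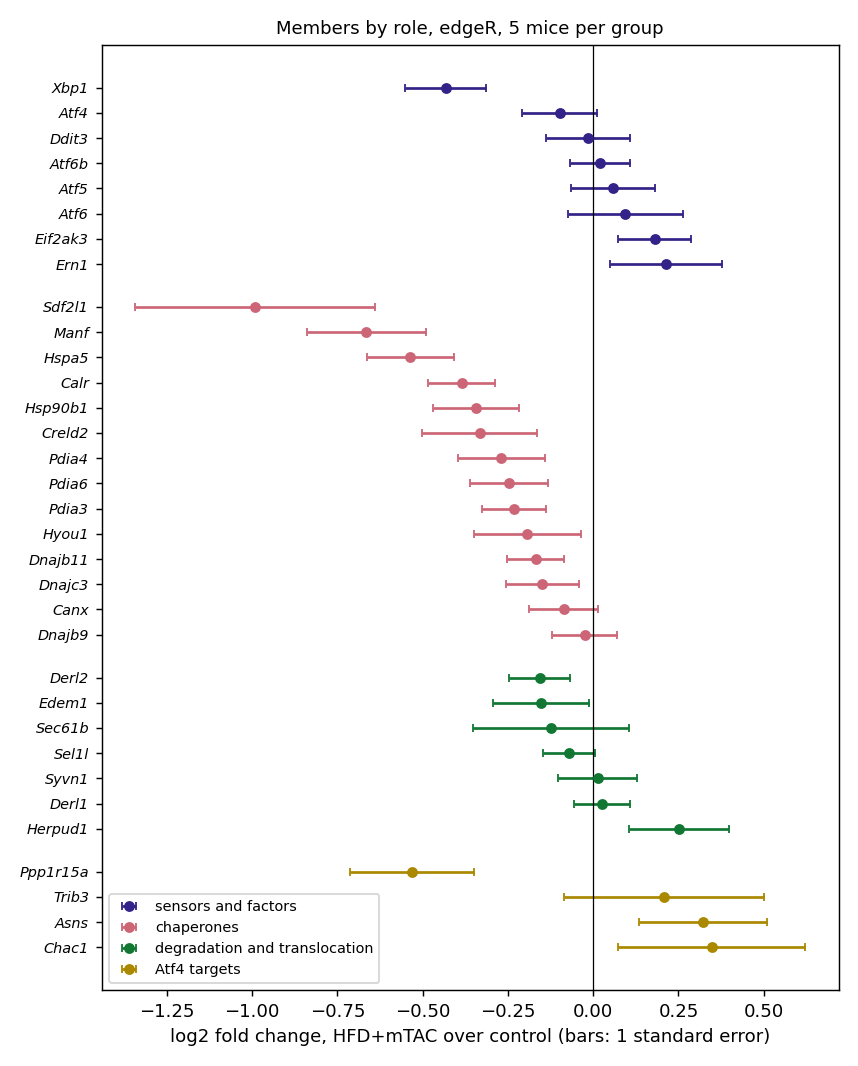
Log2 fold change of the 33 detected members in HFD+mTAC over control mice (horizontal axis; points with bars of 1 standard error, edgeR, 5 mice per group), grouped by role and ordered within each role. All 14 chaperones lie left of 0, from -0.99 for Sdf2l1 to -0.03 for Dnajb9 (Hsp90b1 and Canx are right of 0 when lengths or TPM are used), whereas the other roles fall on both sides.

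The chaperones and folding enzymes were the role in which values lay on the same side most uniformly. All 14 had a lower estimate in HFD+mTAC mice, although that of Hsp90b1 and Canx was above 0 when lengths or TPM were used. The median log2 fold change was -0.26, 6 were below an unadjusted p of 0.05, and none passed the adjusted threshold of edgeR. Hspa5 (GRCm38 chr2:34771970-34777547), which holds unfolded chains and keeps the sensors inactive, measured 884, 1133, 951, 772 and 677 CPM in control mice, given in the order of their numbers as for all members, and 639, 678, 564, 548 and 618 CPM in HFD+mTAC mice. Control mouse TT-584 was highest, and the groups overlapped only in that control mouse TT-587 lay below HFD+mTAC mouse TT-589. Group means were 883 ± 175 and 609 ± 53.9 CPM (SD, n = 5 each), a ratio of 0.690 and a log2 fold change of -0.54 (SE 0.13, 95% interval -0.81 to -0.26, edgeR adjusted p = 0.245).

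Calr (chr8:84841850-84846934) measured 686, 797, 700.1, 590.6 and 575 CPM in control mice and 474, 505, 541, 499.7 and 545 CPM in HFD+mTAC mice. Every control mouse lay above every HFD+mTAC mouse. Its log2 fold change was -0.39 (SE 0.10, 95% interval -0.60 to -0.17, edgeR adjusted p = 0.261). Manf (chr9:106838312-106891979), a small secreted ER protein that stabilizes Hspa5 clients, measured 66.1, 98.4, 58.5, 49.3 and 47.1 CPM in control mice and 35.9, 40.2, 43.4, 42.3 and 39.7 CPM in HFD+mTAC mice, again without overlap. Its log2 fold change was -0.67 (SE 0.17, 95% interval -1.04 to -0.29, edgeR adjusted p = 0.261).

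Hsp90b1 (chr10:86690209-86705509) measured 648, 844, 721, 568 and 496 CPM in control mice and 543, 549, 468, 508 and 513 CPM in HFD+mTAC mice. All control mice except TT-587 lay above all HFD+mTAC mice. Its log2 fold change was -0.34 (SE 0.13, edgeR adjusted p = 0.471), but this estimate depended on whether transcript length was considered, as described for the lengths. Sdf2l1, a cofactor of the Hspa5 cycle, had the lowest estimate of all members, -0.99 (SE 0.35, 95% interval -1.75 to -0.23, edgeR adjusted p = 0.444), at 14.4 CPM in control mouse TT-584, 2.99 to 7.39 in the other control mice and 2.36 to 5.23 in HFD+mTAC mice. Without control mouse TT-584 it was -0.60. Pdia3, a disulfide isomerase that works with Calr and Canx on glycoproteins, had means of 299.6 ± 36.7 and 255.1 ± 16.6 CPM (SD, n = 5 each).

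The other disulfide isomerases Pdia4 and Pdia6 had log2 fold changes of -0.27 (95% interval -0.55 to 0.01) and -0.25 (95% interval -0.49 to 0.00). Creld2, a disulfide isomerase-like protein, was at -0.33, the nucleotide exchange chaperone Hyou1 at -0.19, and the Hspa5 co-chaperones Dnajb11 and Dnajc3 at -0.17 and -0.15. Canx was at -0.09 (95% interval -0.31 to 0.13) and Dnajb9, a co-chaperone that acts on Ire1, at -0.03 (95% interval -0.23 to 0.18). The 8 chaperones with an ERSE or ERSE-II match were all lower, with a median of -0.29 (from -0.54 to -0.09). So were the 4 with a promoter in the table and no match, with a median of -0.25 (from -0.99 to -0.03). No match means no hit to these exact patterns, and an effect of the elements was not tested. The 15 other genes tested that held either element had a median of -0.08, with 8 of 15 below 0.

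**Figure D2:**
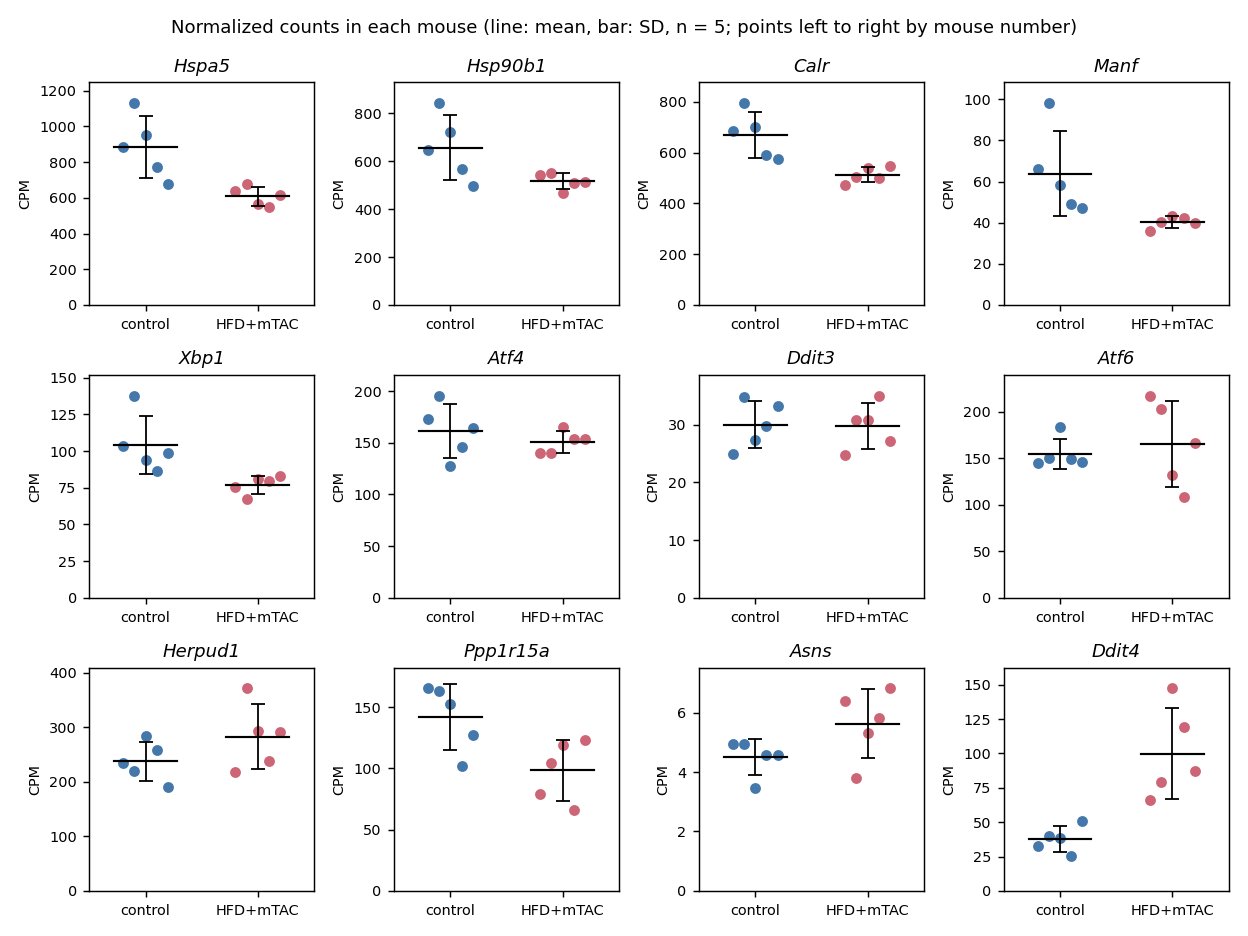
CPM of 11 members and of Ddit4, a further Atf4 target, in each mouse (vertical axes in CPM, starting at 0; points are mice in the order of their numbers, horizontal lines means, bars SD, n = 5 per group). Control and HFD+mTAC points are separated for Calr, Manf and Xbp1, with lower HFD+mTAC values, and for Ddit4, with higher ones, and they overlap in the other panels.

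Chaperones differed more among control mice than among HFD+mTAC mice. The SD of log2(CPM + 0.5) was larger in the control group for 13 of 14 chaperones (all but Dnajb9), with a median of 0.27 against 0.12, whereas it was larger in the control group for 47.0% of all genes tested. Control mouse TT-584 had the highest value of all 10 mice for 12 of the 14 chaperones and for 16 of the 33 members, and for 9.69% of all genes tested. The mean log2 level of the 14 chaperones, relative to all mice, was 0.20, 0.53, 0.19, 0.02 and -0.19 in the control mice, by number, and lay between -0.19 and -0.09 in the HFD+mTAC mice. Control mouse TT-587, at -0.194, was thus about level with the lowest HFD+mTAC mouse, TT-591 at -0.191. Control mice TT-583, TT-584 and TT-585, the highest by this mean, also had the most counts on tested genes, 20.84, 19.56 and 21.07 M. The other mice had 12.65 to 16.88 M. The part of sequencing depth in the chaperone values was not tested. Without control mouse TT-584, the control group still had the larger SD for 13 of 14 chaperones, with a median of 0.20. Because the chaperones tended to be high in the same mice, the 14 genes are not independent observations of the spread.

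**Figure D3:**
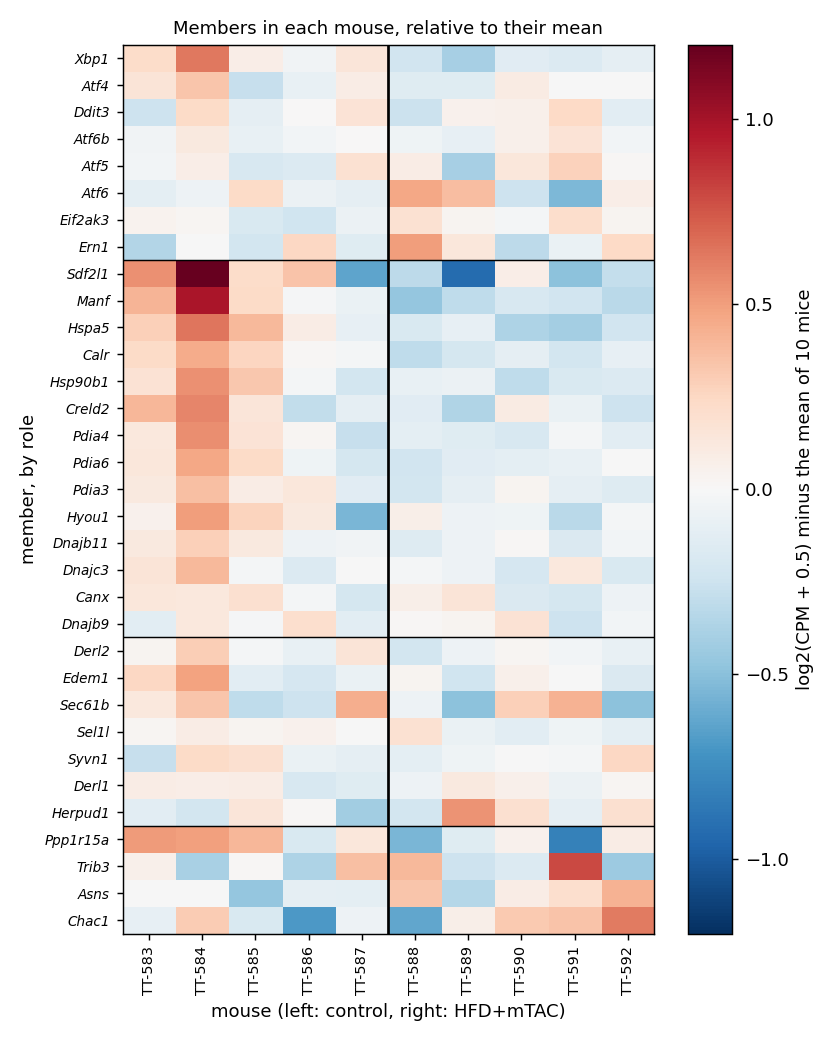
Heat map of the 33 members (rows, by role) in the 10 mice (columns, control left and HFD+mTAC right of the vertical line), as log2(CPM + 0.5) minus the mean of all mice, red above and blue below the mean. The column of control mouse TT-584 is the reddest over the chaperones, with a mean of 0.53, and control mouse TT-587 resembles the HFD+mTAC mice there, with a mean of -0.19.

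Leaving out control mouse TT-584 moved the median log2 fold change of all members to -0.06 and that of the chaperones to -0.16, with 13 of 14 chaperones still lower (all but Dnajb9, at 0.00), and gave 5 members at an unadjusted p under 0.05. Hspa5 was then at -0.43 and Manf at -0.46. Control mice TT-583 and TT-584 were also the mice with the lowest mitochondrial shares. Without both, all 14 chaperones were lower with a median of -0.11, the median over members was -0.03, and Hspa5 was at -0.39, Calr at -0.28, Manf at -0.36 and Xbp1 at -0.27. With the mitochondrial share as a covariate, the chaperone median was -0.17 and Hspa5 was at -0.46 (edgeR adjusted p = 0.564). Both of these fits were chosen after seeing the data. The 9 cardiomyocyte markers were also all lower in HFD+mTAC mice, with a median of -0.21 and summed TPM of 19210 to 24390 against 16840 to 20380. Medians were -0.23 for 5 red blood cell markers (5 lower), -0.30 for 5 of smooth muscle cells and pericytes (3 lower) and -0.32 for 4 of Schwann cells (3 lower), and 0.06 for fibroblast, 0.12 for endothelial and 0.00 for macrophage markers, none of which edgeR called. Summed TPM in control and HFD+mTAC mice was 90.2 to 877 and 95.4 to 861 for red blood cells, 59.8 to 113 and 48.2 to 95.4 for smooth muscle cells and pericytes, and 0.68 to 1.92 and 0.43 to 0.93 for Schwann cells. The markers of plasma cells, whose secretory ER is large, and of B cells together summed to 3.89 to 12.4 TPM in control and 4.80 to 13.7 TPM in HFD+mTAC mice. Their part in the chaperone values was not tested.

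**Figure D4:**
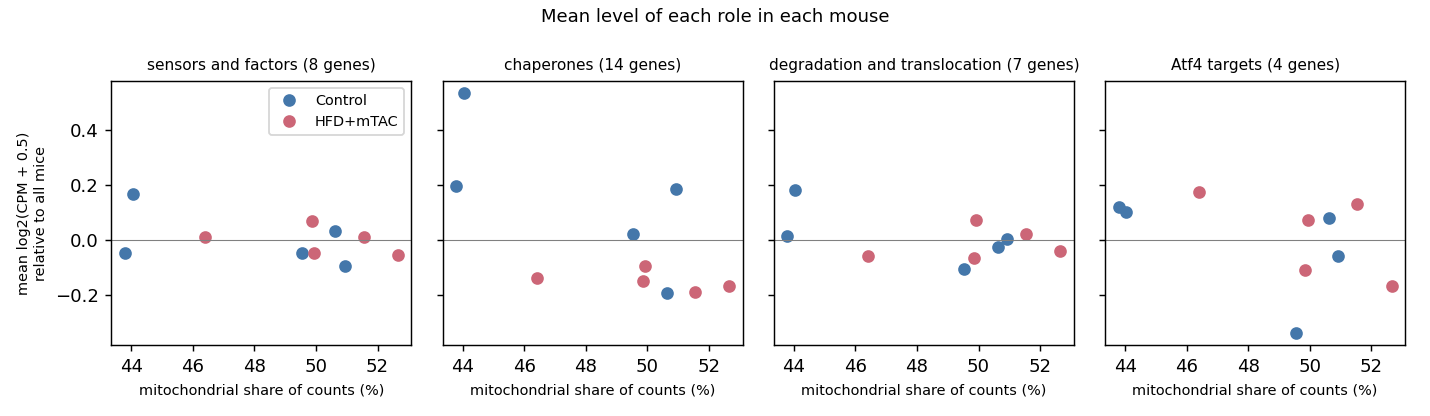
Mean log2(CPM + 0.5) of the members of each role relative to all mice (vertical axes) against the mitochondrial share of counts (horizontal axes, %), with 1 point per mouse. The chaperone panel has the widest range, from -0.19 to 0.53, with control mice TT-583 and TT-584 at the left at shares of 43.8 and 44.0%, whereas control mouse TT-585 reached 0.19 at 50.9%. These control mice also had the most counts on tested genes.

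Of the pairs of members whose relation was examined, those between chaperones passed the threshold. Among 6 pairs over 10 mice (log2(CPM + 0.5), 100000 permutations, two-sided, Benjamini-Hochberg over the 6 pairs), Hspa5 and Hsp90b1 had a Pearson r of 0.958 (permutation p = 2e-05, adjusted 0.00012) and a Spearman rho of 0.903 (permutation p = 0.00083, adjusted 0.00498). With the mice farthest from the median of Hspa5 left out (TT-584 and TT-585), r was 0.881, and with values centred on their group means r was 0.968. For this pair on log2(TPM + 1), r was lower, at 0.768 (permutation p = 0.00325, adjusted 0.0195), and 0.683 without TT-590 and TT-591. For Hspa5 and Manf, r was 0.895 (permutation p = 0.00067, adjusted 0.00201), rho was 0.758 (permutation p = 0.0149, adjusted 0.0446) and r without TT-584 and TT-585 was 0.763. On log2(TPM + 1) r was 0.77 (permutation p = 0.0067, adjusted 0.0201), whereas rho was 0.636 and no longer passed (permutation p = 0.0554, adjusted 0.166). After centring on group means rho was 0.442 (permutation p = 0.202, adjusted 0.607) and r was 0.751 (permutation p = 0.0164, adjusted 0.0492), and r was 0.0947 once control mice TT-584 and TT-587 were left out, so that within groups this relation rested on those mice. The groups of 5 are too small for a correlation within each. For Xbp1 and its target Dnajb9, r was 0.0748 (permutation p = 0.839, adjusted 0.839; rho -0.0788, permutation p = 0.836, adjusted 0.918; r -0.247 without TT-584 and TT-589).

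Among the sensors and transcription factors, 3 of 8 members were lower and 5 higher, with a median of 0.04, and only Xbp1 was below an unadjusted p of 0.05. Xbp1 (chr11:5520659-5525893) measured 104, 138, 93.9, 86.4 and 98.7 CPM in control mice and 75.5, 67.3, 81.0, 79.3 and 82.7 CPM in HFD+mTAC mice. These groups did not overlap, although control mouse TT-586 and HFD+mTAC mouse TT-592 were close. Its log2 fold change was -0.43 (SE 0.12, 95% interval -0.69 to -0.17, edgeR adjusted p = 0.290). Gene-level counts do not separate spliced from unspliced Xbp1 mRNA, so the activity of Ire1 was not measured.

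Ern1 measured 11.8, 15.1, 12.9, 18.1 and 13.7 CPM in control mice and 21.7, 16.7, 12.1, 14.3 and 18.0 CPM in HFD+mTAC mice, with wide overlap. Eif2ak3 measured 13.9, 13.7, 11.8, 11.4 and 12.8 CPM in control mice and 15.4, 13.9, 13.2, 15.7 and 13.8 CPM in HFD+mTAC mice, and overlapped in a narrow range. Their log2 fold changes were 0.21 (95% interval -0.15 to 0.57) and 0.18 (95% interval -0.05 to 0.41). Atf6 measured 145, 150.4, 184, 149.8 and 146 CPM in control mice and 218, 203, 132, 108 and 167 CPM in HFD+mTAC mice. The HFD+mTAC mice thus lay on both sides of the control mice, with an SD of 46.2 against 16.3 CPM and a log2 fold change of 0.09 (95% interval -0.27 to 0.46). Its paralogue Atf6b had means of 24.9 and 25.3 CPM.

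Atf4, the factor at the center of the integrated stress response, measured 173, 196, 127, 145.5 and 164 CPM in control mice and 139.8, 139.8, 166, 154 and 154 CPM in HFD+mTAC mice. The HFD+mTAC values lay within the range of the control mice, with a log2 fold change of -0.10 (95% interval -0.34 to 0.14). Ddit3, the factor Chop that is linked to cell death under prolonged ER stress, measured 24.8, 34.8, 27.4, 29.7 and 33.3 CPM in control mice and 24.7, 30.8, 30.8, 35.0 and 27.1 CPM in HFD+mTAC mice. Its groups overlapped throughout, with means of 30.0 and 29.7 CPM and a log2 fold change of -0.01 (95% interval -0.28 to 0.25). The related factor Atf5 was at 0.06 (95% interval -0.21 to 0.32). Atf4 is controlled mainly in translation, which these RNA counts do not measure.

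In the degradation and translocation role, 4 of 7 detected members were lower and 3 higher, with a median of -0.07, and none was below an unadjusted p of 0.05. Herpud1 measured 234, 219, 283, 258 and 191 CPM in control mice and 219, 371, 293, 237 and 292 CPM in HFD+mTAC mice. HFD+mTAC mouse TT-589 was highest, and the groups overlapped. Its log2 fold change was 0.25 (SE 0.15, 95% interval -0.06 to 0.57, edgeR adjusted p = 0.706). Derl2, a channel-like protein of the degradation complex, measured 41.7, 49.9, 40.1, 38.3 and 45.2 CPM in control mice and 34.9, 38.8, 41.3, 39.8 and 38.2 CPM in HFD+mTAC mice, with overlap and a log2 fold change of -0.16 (95% interval -0.35 to 0.04). Edem1, which directs misfolded glycoproteins to degradation, measured 24.3, 28.6, 18.6, 17.6 and 19.2 CPM in control mice and 20.8, 17.2, 21.3, 20.3 and 18.0 CPM in HFD+mTAC mice.

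In Edem1 only control mice TT-583 and TT-584 stood above the HFD+mTAC mice, and the log2 fold change was -0.15 (95% interval -0.46 to 0.15). The ubiquitin ligase Syvn1, its partner Sel1l and Derl1 had log2 fold changes of 0.01, -0.07 and 0.03, with 95% intervals from -0.24 to 0.26, from -0.23 to 0.09 and from -0.15 to 0.21. Sec61b, a subunit of the translocation channel, was at -0.12 with a wider interval, from -0.62 to 0.37.

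Of the 4 Atf4 targets, 3 were higher and 1 was lower in HFD+mTAC mice. Ppp1r15a (Gadd34, chr7:45522916-45526268), which recruits the phosphatase that reverses eIF2 phosphorylation, measured 165, 163, 153, 102 and 127 CPM in control mice and 79.0, 104, 119, 65.8 and 123 CPM in HFD+mTAC mice. All control mice except TT-586 lay above all HFD+mTAC mice. Its log2 fold change was -0.53 (SE 0.18, 95% interval -0.93 to -0.14, edgeR adjusted p = 0.430). Asns, which makes asparagine, measured 4.95, 4.94, 3.48, 4.58 and 4.56 CPM in control mice and 6.41, 3.81, 5.31, 5.80 and 6.81 CPM in HFD+mTAC mice. All HFD+mTAC mice except TT-589 lay above all control mice, and the log2 fold change was 0.32 (95% interval -0.09 to 0.73, edgeR adjusted p = 0.707).

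Chac1 measured 3.46, 4.73, 3.23, 2.11 and 3.54 CPM in control mice and 2.24, 3.93, 4.77, 4.85 and 6.02 CPM in HFD+mTAC mice, with a log2 fold change of 0.35 (95% interval -0.25 to 0.94). Trib3, a pseudokinase induced through Atf4 and Ddit3, measured 3.41, 2.37, 3.28, 2.40 and 4.33 CPM in control mice and 4.42, 2.66, 2.85, 6.01 and 2.27 CPM in HFD+mTAC mice. Both overlapped, and the interval of Trib3 ran from -0.43 to 0.84 around an estimate of 0.21. Across mice, no relation of Atf4 or Ddit3 with these targets passed the threshold, with an r of -0.155 for Trib3 (permutation p = 0.667, adjusted 0.839; rho -0.236, permutation p = 0.511, adjusted 0.769; r 0.103 without TT-584 and TT-585) and 0.292 for Asns (permutation p = 0.415, adjusted 0.83; rho 0.236, permutation p = 0.513, adjusted 0.769; r 0.034 without TT-584 and TT-585). For Ddit3 and Trib3, r was 0.109 (permutation p = 0.764, adjusted 0.839; rho 0.0424, permutation p = 0.918, adjusted 0.918; r 0.511 without TT-583 and TT-588).

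The groups did not overlap for 3 of the 33 members, Xbp1, Manf and Calr, all lower in HFD+mTAC mice. Over all genes tested, 1.96% did not overlap, 0.887% with lower and 1.08% with higher values in HFD+mTAC mice. This count was 0 when TPM was used, where the share over all genes was 1.29%, and 0 when transcript lengths entered the fit as an offset, where it was 1.44%.

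Effective transcript lengths, which convert counts to TPM, varied between mice and changed the picture of individual members. Hsp90b1 had an effective length of 846 bases in HFD+mTAC mouse TT-588 and of 1884 to 2330 bases in the other mice, and its TPM there was 99.1 against 30.1 to 74.1 elsewhere, while its CPM in that mouse, 543, lay inside the range of its group. With lengths as an offset its log2 fold change was 0.06, and with limma on log2(TPM + 1) it was 0.01, in place of -0.34. On that TPM scale Calr was at -0.23 in place of -0.39, Asns at 0.57 in place of 0.32 and Herpud1 at 0.63 in place of 0.25, and none passed the adjusted threshold of limma. Herpud1 had an effective length of 1843 bases in control mouse TT-583 and of 621 to 997 bases in the others, and Hyou1 ranged from 2824 to 21014 bases although its longest annotated transcript has 4925. The effective length ranged over more than 1.5-fold between mice for 18 of the 33 members (43% of all genes), and its median exceeded the longest annotated transcript for 15 (47.6% of all genes with an annotation). No member had a length that differed between the groups at an unadjusted p under 0.05 (limma; 3.75% of all genes). The cause of these lengths was not tested.

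**Figure D5:**
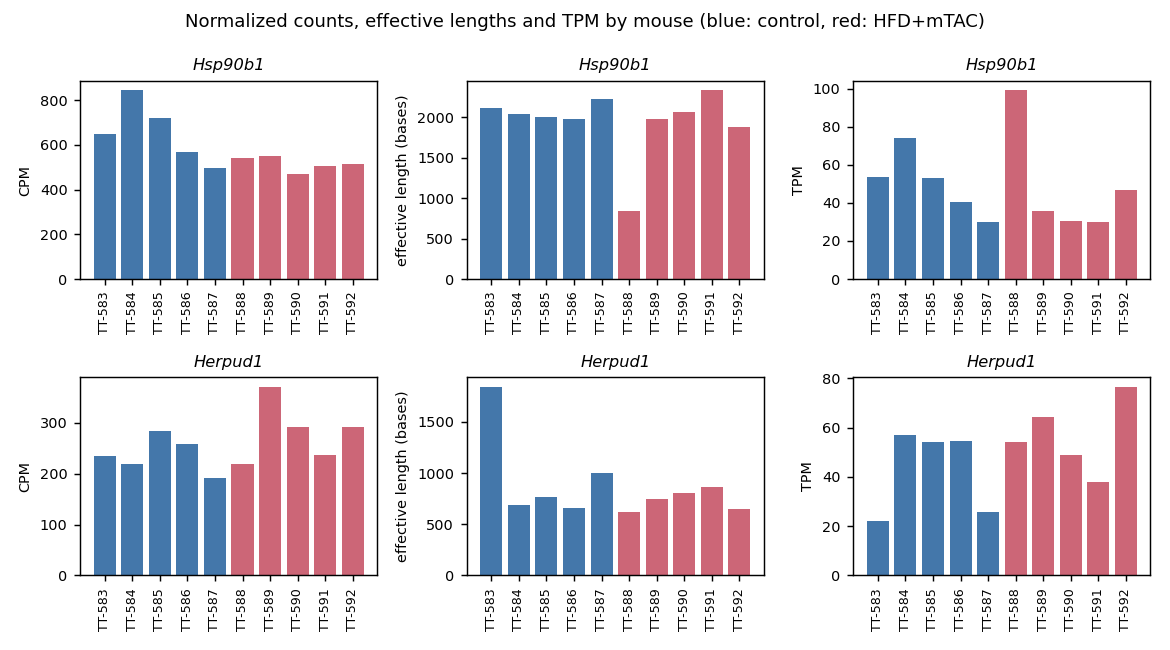
CPM, effective transcript length in bases and TPM (vertical axes, starting at 0) of Hsp90b1 and Herpud1 in each mouse, control in blue and HFD+mTAC in red. The short length of Hsp90b1 in mouse TT-588 (846 bases) goes with the highest TPM (99.1), and the long length of Herpud1 in mouse TT-583 (1843 bases) goes with the lowest (22.1), whereas neither CPM stands apart.

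Beyond the module, 95 other genes of the pathways were tested, of which 52 were lower and 43 higher in HFD+mTAC mice with a median of -0.01. None was called by edgeR, and 9 were at an unadjusted p under 0.05, 5 lower and 4 higher, a share near the 8.26% of all genes. DESeq2 called 4 of them (0.902% of all genes called), Ddit4, Mbtps1, Mthfd2 and Slc7a1. Of 21 other targets of Atf4, 15 were higher (all genes, 50.3%) with a median of 0.07, and those at an unadjusted p under 0.05 were 2 lower and 2 higher. Ddit4 (chr10:59949669-59951834), an inhibitor of mTORC1 that also responds to glucocorticoids and hypoxia, measured 32.9, 40.2, 38.6, 25.3 and 50.6 CPM in control mice and 66.0, 78.9, 147, 119 and 87.0 CPM in HFD+mTAC mice. All values of HFD+mTAC mice were above those of control mice, with a log2 fold change of 1.41 (SE 0.23) that narrowly missed the threshold of edgeR (adjusted p = 0.0510) and passed that of DESeq2 (adjusted p = 8.355e-07). Slc7a1, a transporter of cationic amino acids, was lower without overlap, at 94.9 to 122 CPM in control and 47.9 to 87.7 CPM in HFD+mTAC mice (log2 fold change -0.68, edgeR adjusted p = 0.185). Mthfd2, a mitochondrial folate enzyme named here after its value was seen, had means of 3.75 ± 1.54 and 7.46 ± 1.54 CPM (SD, n = 5 each).

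Mbtps1, the site-1 protease that cuts Atf6, measured 61.5, 62.1, 63.2, 59.1 and 65.0 CPM in control mice and 74.6, 73.2, 70.2, 74.8 and 70.9 CPM in HFD+mTAC mice. The difference was small but free of overlap, with a log2 fold change of 0.23 (SE 0.06, edgeR adjusted p = 0.296), in a list of 10 other stress transcription factors and proteases with 5 lower and 5 higher. Nfe2l1, a factor that raises proteasome genes, was at 0.35 (edgeR adjusted p = 0.504), and at 0.66 with lengths as an offset. Among 11 genes of the other eIF2 kinases, eIF2 and eIF2B, 6 were lower with a median of -0.03, and the lowest p-values were those of the eIF2B subunit Eif2b3 at -0.22 and the eIF2 subunit Eif2s2 at -0.17.

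Of 22 other ER folding genes, 15 were lower with a median of -0.05, against -0.26 for the chaperones of the module. The oxidase Ero1l, which supplies disulfide bonds, was at -0.28 (edgeR adjusted p = 0.567; -0.15 without control mouse TT-587) and the disulfide isomerase Pdia5 at -0.41 (edgeR adjusted p = 0.639). Of 16 other degradation genes, 10 were lower with a median of -0.01. Vimp (selenoprotein S), a membrane partner of the degradation complex, was lower without overlap, with 33.9 to 41.6 CPM in control and 27.4 to 33.1 CPM in HFD+mTAC mice (log2 fold change -0.31, edgeR adjusted p = 0.324), and the lectin Erlec1 was at -0.17. Of 15 other translocon genes, 10 were lower with a median of -0.05, and the channel subunit Sec61a2 and the signal peptidase subunit Spcs2 were at -0.19 and 0.31.

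Cytosolic heat shock proteins, which respond to unfolded proteins outside the ER, were set beside the module. Of 19 tested, 13 were lower in HFD+mTAC mice (all genes, 49.7%), with a median of -0.11, none was called by edgeR and 3 were at an unadjusted p under 0.05 (all genes, 8.26%). The inducible Hsp70 gene Hspa1b measured 325 CPM in control mouse TT-584, 50.8 in control mouse TT-583, 45.2 in HFD+mTAC mouse TT-588 and 8.35 to 15.9 in the other 7 mice. Reads of Hspa1b and its near-identical copy Hspa1a may be divided between them, so each is uncertain. Its co-chaperone Dnaja1 measured 336 CPM in control mouse TT-584 and 178 in control mouse TT-583, and 83.8 to 124 in the other mice. Control mouse TT-584 was thus the highest for both, as for the chaperones. Their log2 fold changes were -2.19 for Hspa1b (SE 0.90, edgeR adjusted p = 0.525) and -0.72 for Dnaja1 (SE 0.30, edgeR adjusted p = 0.552), and without control mouse TT-584 they were -0.35 and -0.29.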

How the data were processed

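Left ventricular RNA of 5 control and 5 HFD+mTAC mice was analyzed, with groups taken from the sample labels. The expected counts deposited per gene came from Salmon (version 1.6.0 per the labels), were summed over transcripts with tximport and were not normalized. Of them 20.07% were not whole numbers, and all were rounded. The authors also deposited TPM, scaled within each mouse and corrected for length, and average effective transcript lengths in bases, which are not normalized. TPM equalled counts divided by length, scaled, within a relative difference of 0.000507. The labels name the human build hg38, whereas symbols are those of mouse genes and the study's methods name GRCm38. The labels and the methods also differ in read length. Of 29564 symbols, 27862 matched GENCODE M21 (GRCm38) directly, 871 through an older symbol and 831 not at all. Coordinates are from GRCm38.

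Protein-coding nuclear genes with at least 1 count in 9 of 10 mice (13301) were tested with edgeR 4.0.16 in R 4.3.3 (quasi-likelihood test, TMM factors, Benjamini-Hochberg adjustment, threshold 0.05, common dispersion 0.0422), on all 10 mice without covariates. DESeq2 1.42.0, limma 3.58.1 on TPM, other normalizations and filters, lengths as an offset and the omission of each mouse were alternatives. The scripts were tested on simulated data. Members named with every mouse's value were 12 set by role and the 3 with the smallest p in each role, and other lists gave their 2 smallest p-values. The members and lists were chosen with earlier results of these data known. P-values of edgeR, DESeq2 and limma set the difference between groups against the spread between mice within groups. Those of the correlations come from permutations of the 10 mice.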

Additional observations from a re-analysis of the deposited data

Results flagged for a closer look

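Of 66 groups of 5 mice examined over the 33 members, 4 held a mouse whose gap to its nearest neighbor was wide for the range of its group (6.06%), and chance alone gives about 1 in 20. In control mice, Atf6 was highest in mouse TT-585 at 183.9 CPM, with the next mouse at 150.4, and Asns was lowest in the same mouse at 3.478 CPM, with the next at 4.561. In HFD+mTAC mice, Sel1l was highest in mouse TT-588 at 115.2 CPM (next 97.97) and Syvn1 in mouse TT-592 at 42.29 CPM (next 35.52). Control mouse TT-584, the highest for most chaperones, was flagged for 0 members, since the other control mice were spread as well.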

How the results depend on the processing

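Of 726 log2 fold changes of members under 22 alternatives, 688 kept the sign of the reported value, and 21 of 33 members kept it under every alternative. The count of members called was 0 in edgeR under every normalization, filter and omission of a mouse, and 3 with DESeq2, in which the count of other pathway genes called was 4. Members without overlap numbered 0 on TPM and 0 with lengths as an offset. When a mouse was left out they numbered between 3 and 8, with 8 without control mouse TT-587 and 5 without HFD+mTAC mouse TT-589. The share over all genes rose too, from 1.962% with all mice to 3.759% without TT-587 and 3.203% without TT-589. Hsp90b1 and Canx changed sign in the 3 fits that used lengths or TPM. No paired analysis was possible because the groups share no mouse numbers. Few reads limit Chac1, Trib3, Asns and Sdf2l1.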

Other observations

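The mitochondrial chaperones and proteases, which serve the stress response of another compartment, lay close to 0. Of 12 genes tested, 9 were lower in HFD+mTAC mice (all genes, 49.7%) with a median log2 fold change of -0.06, none was called by edgeR and 1 was at an unadjusted p under 0.05 (all genes, 8.26%). Hspe1, the co-chaperonin of mitochondrial Hsp60, measured 126 to 191 CPM in control and 104 to 141 CPM in HFD+mTAC mice (log2 fold change -0.34, edgeR adjusted p = 0.443). Only control mice TT-583 and TT-584, at 160.5 and 190.7 CPM, stood above the HFD+mTAC mice. The other control mice, at 125.8 to 137.7 CPM, lay within the range of the HFD+mTAC mice. The inner-membrane protease Yme1l1 was at -0.10. Hspd1, the chaperonin itself, had means of 562 ± 124 and 561 ± 113 CPM (SD, n = 5 each).

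Cryab, a small heat shock protein known as abundant in heart muscle, had means of only 2.13 ± 0.62 and 2.44 ± 0.61 CPM (SD, n = 5 each), against 4497 ± 541 and 5096 ± 545 CPM for the related Hspb7. It was named after its values were seen, and the cause of its low count was not tested.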
